A study of Hyacinthus orientalis with 189 samples.

Results

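'China Pink' is a hyacinth (Hyacinthus orientalis) cultivar with pinkish white flowers, stated in the study to be a sport of the blue 'Delft Blue', and its perianth was followed here from green bud to full anthesis. Its members are the libraries whose code begins with CP, 27 of the 189 libraries and 9 of the 63 flowers of the series. RNA-Seq was performed on 3 flowers with green buds (Stage B), 3 flowers with coloured buds (Stage C) and 3 flowers in full anthesis (Stage A). Each flower gave 3 libraries, from the tube and from the outer and the inner lobes, after stamens and pistil had been taken out with forceps. The flowers of every group, other cultivars included, grew from Dutch bulbs that were dipped in a fungicide, kept cold and planted outdoors in winter, and no further treatment is stated. Whether flowers of 1 stage came from separate bulbs is not stated in the sources used here, so that p-values measure the spread between these 9 flowers. The questions are which unigenes changed from Stage B to Stage C and from Stage C to Stage A, whether tube and lobes changed alike, and where 'China Pink' differed from 'Delft Blue' and from the mean of all other 6 cultivars of the series, which are 'Delft Blue', 'Jan Bos', 'Pink Pearl', 'Gipsy Queen', 'City of Haarlem' and 'Peter Stuyvesant', each sampled as 9 flowers.

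A perianth begins as a green organ whose plastids hold chlorophyll, and colours when chlorophyll is broken down and anthocyanins are stored in the vacuoles of the epidermis. Anthocyanins are made from phenylalanine by chalcone synthase, chalcone isomerase, flavanone 3-hydroxylase, dihydroflavonol reductase and anthocyanidin synthase in turn, and are then glycosylated and acylated. Petals first grow by cell division and afterwards by cell expansion, which needs loosened walls, water and sugar, and open flowers release terpenes and benzenoids as scent.

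Counts of the 3 partitions of 1 flower were summed, so that the flower is the unit, and a unigene was called when its Benjamini-Hochberg adjusted p in edgeR's quasi-likelihood test was under 0.05 and its log2 fold change over 1 in size. Values per flower are normalised CPM, in which the library size is scaled by TMM. Only called unigenes are described as risen or fallen. Counts at an unadjusted p under 0.05 keep the same threshold of log2 fold change. Library totals ran from 12704838 to 15946202 expected counts (median 13654705), and flower totals from 39892570 to 42631176. The TMM factors differed by stage, from 1.318 to 1.604 at Stage B, 0.848 to 0.92 at Stage C and 0.76 to 0.801 at Stage A. The share of counts taken by the 100 most abundant unigenes was lowest in a Stage B flower, at 10.6%, and was 16.0 to 17.1% at Stage C and 16.5 to 18.5% at Stage A. Unigenes are assembled without a genome and named by their best Swiss-Prot match, so that 1 gene can be split over several unigenes and near-identical copies can share reads. Where counts of a group are 0, folds are given against a floor of 3 counts over that group, which covers counting error only.

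Of the 9 flowers, 3 stood apart in unigenes that match potyvirus polyproteins, which are the translated genomes of plant RNA viruses. Summed over 19 such unigenes, flower 3 of Stage B held 50356 counts (0.122% of its total), flower 2 of Stage C 542526 (1.33%) and flower 3 of Stage A 342797 (0.833%), whereas the other 6 flowers held 0 to 52. None of the 10 tested unigenes of this list was called between stages. Without these 3 flowers, 14759 unigenes rose and 11420 fell from Stage B to Stage C, and 1758 rose and 1231 fell from Stage C to Stage A. Of the calls made with all flowers, 23659 of 42348 (55.9%) and 1113 of 3645 (30.5%) were shared with these. That fit holds only 2 flowers a stage. Leaving out just 1 of the other 6 flowers kept 57.3% (flower 2 of Stage B) to 96.2% (flower 1 of Stage A) of the calls in the first step. In the second step it kept 0.0% (flower 1 of Stage A) to 46.1% (flower 2 of Stage A). The part of the potyvirus-like counts in the lost calls was not tested.

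The labelled tissue was checked on MADS-box matches. The unigene matching MADS-box transcription factor 2 (Cluster-20417.237353), in rice a B class factor of PISTILLATA type, had a mean FPKM of 2099 in green buds, 1777 in coloured buds and 1266 in open flowers. It was not called between stages. An AGAMOUS match (Cluster-20417.178664), a factor that in Arabidopsis specifies stamens and carpels, was lower, with mean FPKM of 14.2, 16.0 and 10.4. From Stage B to Stage C, 17.9% of all tested unigenes rose and 17.2% fell. Of 42 tested unigenes with pollen or anther words in their match, 12 rose and 3 fell in this step. Their summed level was 396 to 732 normalised CPM at Stage B, 1002 to 1178 at Stage C and 896 to 1871 at Stage A. The 3 that fell were 2 tetraketide alpha-pyrone reductase 1 matches (Cluster-20417.192416 and Cluster-20417.258621) and a match of the pollen allergen Ole e 10 (Cluster-20417.244572). Among 5 tested unigenes with ovule or carpel words, the match of stigma-specific STIG1-like protein 1 (Cluster-20417.104026) rose, from 0 counts in every Stage B flower to 2.80, 6.76 and 8.05 normalised CPM at Stage C and 28.1, 12.2 and 13.9 at Stage A. The ovule and carpel list summed to 8.74 to 10.3 normalised CPM at Stage B, 15.02 to 26.1 at Stage C and 23.8 to 40.5 at Stage A. The part of these levels in the stage changes was not tested.

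From green to coloured buds, most photosynthesis unigenes fell, and most scent unigenes and the STAY-GREEN unigenes of chlorophyll breakdown rose. Of 120336 tested unigenes, 21591 rose (17.9%) and 20757 fell (17.2%), of which 19466 and 20632 moved in that direction in each of the 3 partitions. The 3 Stage C flowers did not overlap with the 3 Stage B flowers in normalised CPM for 19268 of the risen and 20462 of the fallen unigenes, against 30961 (25.7%) and 34432 (28.6%) of all tested unigenes in these directions. No counts at Stage B were found for 2147 of the risen unigenes, and none at Stage C for 600 of the fallen ones. Without flower 2 of Stage B, 14132 unigenes rose and 11150 fell. The split between risen and fallen unigenes depended on the scaling. With TMM, 51.0% of the called unigenes rose (median log2 fold change of all tested unigenes -0.04). In contrast, 11639 rose and 41266 fell with library sizes alone (median -0.75), and 24.6% of the called unigenes rose with limma on log2(FPKM + 1) (median -0.33).

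Most unigenes of smallest p were near absence in one of the stages. STAY-GREEN, the chloroplast protein that removes magnesium from chlorophyll, was matched by a unigene (Cluster-20417.202553) at 0.0333, 0 and 0.0187 normalised CPM in the Stage B flowers, at 485, 834 and 684 at Stage C and at 993, 972 and 998 at Stage A. No Stage B flower came near the Stage C flowers, and the log2 fold change was 15.05 ± 0.645 (SE, adjusted p = 1.44e-07). Since the 3 Stage B flowers together held only 3 counts of it, the fitted value depends on the prior count, and the ratio of pooled normalised counts was 39900 with a 95% exact interval of 13600 to 193000, which covers counting error only. A unigene matching trans-resveratrol di-O-methyltransferase (Cluster-20417.134018), named after a grapevine enzyme that adds methyl groups to resveratrol, had the same values at Stage B and 655, 766 and 741 normalised CPM at Stage C. It rose by 15.16 ± 0.626 on the log2 scale (adjusted p = 1.44e-07), and its pooled ratio was 43300 (interval 14800 to 210000). A further match of that enzyme (Cluster-20417.331359) rose by 13.13 ± 0.409 (adjusted p = 2.5e-07). In the other direction, the match of cytochrome P450 86B1 (Cluster-20417.252829), which in Arabidopsis hydroxylates very long fatty acids, had 55.6, 38.2 and 30.9 normalised CPM at Stage B and at most 0.0580 in a Stage C flower, a log2 fold change of -10.02 ± 0.601 (adjusted p = 2.5e-07). Rop guanine nucleotide exchange factor 14 (Cluster-20417.227636), which switches on Rop GTPases, fell by 5.0 ± 0.322 on the log2 scale (adjusted p = 9.13e-07), from 2.07 to 2.87 normalised CPM at Stage B to 0.0580 to 0.0851 at Stage C.

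Compared per length, the abundant transcripts of each stage belonged to different functions. At Stage B the highest mean FPKM among unigenes with a Swiss-Prot match were 15220 for chlorophyll a-b binding protein 40 (Cluster-20417.239876, 301 bases) and 10690 for BURP domain-containing protein 12 (Cluster-20417.238457). At Stage C they were 10730 for non-specific lipid-transfer protein 2B (Cluster-20417.239027) and 8429 for the resveratrol methyltransferase match of 362 bases. Stage A was led by chitinase 9 (Cluster-20417.235565), a chitin-cleaving enzyme, at 12780 and by tyrosine decarboxylase 3 (Cluster-20417.115461, 417 bases) at 11430. The authors' FPKM rest on an effective length shorter than the unigene, and its part in these ranks of short unigenes was not tested.

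**Figure D1:**
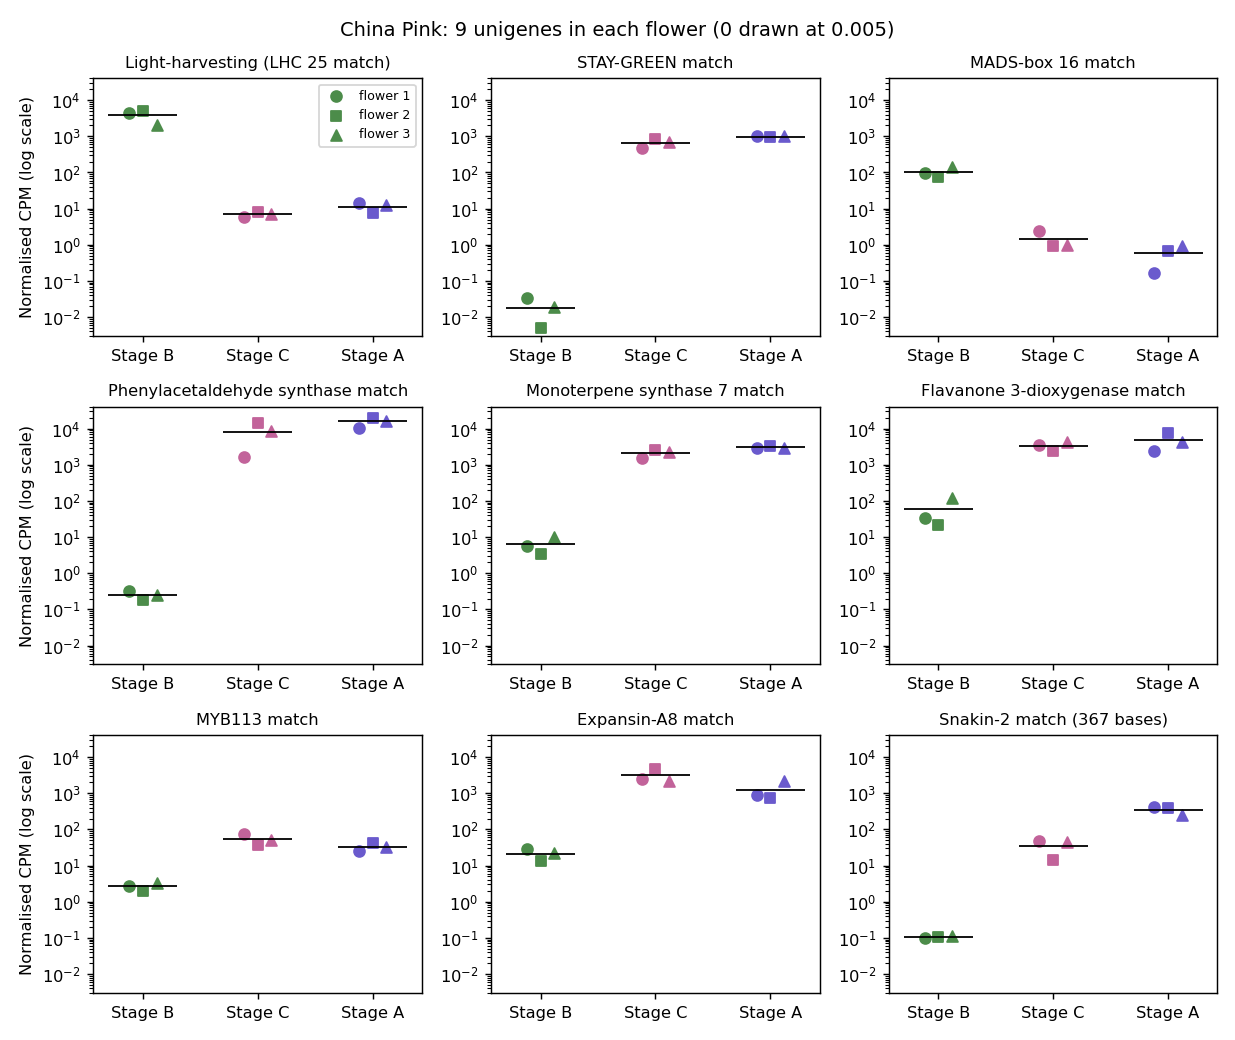
Normalised CPM of 9 unigenes in each of the 3 flowers of Stage B, Stage C and Stage A on a log axis (points, 1 per flower, with 0 drawn at 0.005, and lines through the stage means). The light-harvesting and MADS-box panels drop from Stage B to Stage C (log2 fold change -9.11 and -6.17), the STAY-GREEN, scent, flavanone 3-dioxygenase, MYB113 and expansin panels climb (4.34 to 15.05), and the Snakin-2 panel climbs again from Stage C to Stage A (3.33).

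Of 190 tested photosynthesis unigenes, 140 fell from Stage B to Stage C and 4 rose, with a median log2 fold change of -3.56 against -0.04 for all tested unigenes. Their summed level was 25780, 27590 and 17200 normalised CPM in the Stage B flowers, 1431, 1264 and 1530 at Stage C and 1298, 1226 and 1156 at Stage A. Every Stage B flower lay far above every Stage C flower, and Stages C and A lay close together. In these bulk libraries, fewer cells of a type and less RNA per cell cannot be told apart. Light-harvesting proteins, which bind chlorophyll in the antennae, fell in 60 of 74 unigenes and photosystem subunits in 62 of 88. The oxygen-evolving complex, which splits water, fell in 12 of 16 unigenes and the group listed as small subunit of rubisco, the carbon-fixing enzyme, in 12 of 22. The photosynthesis list also holds a rubisco activase match, so that this group need not be small subunits alone.

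Chlorophyll a-b binding protein 25 (Cluster-20417.238670) had 4347, 5038 and 2061 normalised CPM at Stage B, 5.91, 7.95 and 6.89 at Stage C and 14.1, 7.76 and 12.4 at Stage A. The Stage B flowers stood apart from the others, with a log2 fold change of -9.11 ± 0.521 (adjusted p = 4.12e-06). The photosystem II reaction center W protein match (Cluster-20417.218241) had no counts at Stage C and was at least 245-fold lower than at Stage B. The 4 unigenes that rose were 2 matches of chlorophyll a-b binding protein 7 (Cluster-20417.236331, log2 fold change 1.43, and Cluster-20417.268572, 1.16), the photosystem I P700 apoprotein A2 (Cluster-20417.97191, 2.45) and the photosystem II CP47 protein (Cluster-20417.225631, 1.89), the last 2 being proteins whose genes are plastid-encoded in plants. Leaving out any 1 flower gave between 122 and 141 fallen photosynthesis unigenes.

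Among chlorophyll breakdown genes, 18 of 35 tested unigenes rose and 1 fell (median log2 fold change 1.64). All 11 tested STAY-GREEN matches rose. These 11 summed to 2.15, 1.64 and 3.28 normalised CPM at Stage B, to 2571, 4289 and 3167 at Stage C and to 3966, 3729 and 4231 at Stage A, with no overlap between Stages B and C. Pheophorbide a oxygenase, which opens the chlorophyll ring, rose in 4 of 6 unigenes and fell in 1 (Cluster-20417.209340, log2 fold change -1.89, adjusted p = 0.0459). Pheophytinase, which removes the phytol tail, rose in 1 of 7 unigenes and chlorophyll b reductase in 1 of 8. The red chlorophyll catabolite reductase unigene rose as well, while neither of 2 hydroxymethyl chlorophyll a reductase unigenes was called.

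Scent enzymes rose in 52 of 76 tested unigenes and fell in 7, with a median log2 fold change of 4.31. Summed over the list, the Stage B flowers had 163, 152 and 457 normalised CPM, the Stage C flowers 10640, 32190 and 22410, and the Stage A flowers 28650, 41520 and 36420. Flower 1 of Stage C was the lowest after colouring, yet still far above the Stage B flowers. Benzenoid enzymes rose in 27 of 41 unigenes and terpene synthases in 25 of 35, with 5 and 2 falling. These counts ranged from 43 to 53 risen scent unigenes when any 1 flower was left out, and stood at 49 risen and 10 fallen with library sizes alone.

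Phenylacetaldehyde synthase, which turns phenylalanine into the scent compound phenylacetaldehyde, was matched by a unigene (Cluster-20417.331823) at 0.317, 0.179 and 0.243 normalised CPM at Stage B, 1649, 14560 and 8630 at Stage C and 10650, 20120 and 16790 at Stage A. It rose by 15.03 ± 1.115 on the log2 scale from Stage B to Stage C (adjusted p = 1.58e-05), while the values of Stages C and A overlapped. A shorter match of this enzyme (Cluster-20417.351279) had no counts at Stage B and was at least 25600-fold higher at Stage C. The tyrosine decarboxylase 3 match (Cluster-20417.115461), of the same family of aromatic amino acid decarboxylases, was likewise without counts at Stage B and had 173, 1543 and 902 normalised CPM at Stage C, at least 51200-fold higher over the group. Monoterpene synthase 7 (Cluster-20417.193098) had 5.53, 3.48 and 10.3 normalised CPM at Stage B and 1498, 2607 and 2266 at Stage C, a rise of 8.36 ± 0.541 on the log2 scale (adjusted p = 7.42e-06).

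Flavonoid and anthocyanin enzymes moved in both directions, with 40 of 126 tested unigenes rising and 35 falling (median log2 fold change 0.01). The early enzyme chalcone synthase rose in 3 and fell in 11 of 24 unigenes. It summed to 2685, 2056 and 3650 normalised CPM at Stage B, 964, 462 and 832 at Stage C and 495, 1304 and 393 at Stage A. Chalcone isomerase, with 1 of 6 unigenes falling and none rising, summed to 1999, 1594 and 2655 at Stage B, 1627, 481 and 1604 at Stage C and 636, 1516 and 636 at Stage A. Flavanone 3-hydroxylase, which follows it, rose in 9 of 10 unigenes and fell in 1. Its sum went from 62.3, 40.8 and 189 normalised CPM at Stage B to 4996, 3332 and 5865 at Stage C and 3451, 11080 and 6446 at Stage A, so that the Stage B flowers were below every later flower. The most abundant flavanone 3-dioxygenase F3H1 match (Cluster-20417.239532) had 34.3, 21.8 and 121 normalised CPM at Stage B and 3575, 2355 and 4183 at Stage C, and rose by 5.83 ± 0.769 on the log2 scale (adjusted p = 0.000359). The unigene of this step that fell (Cluster-20417.239909), a flavanone 3-dioxygenase 2 match, changed by -7.11 ± 0.823 on that scale, with 3 counts in all at Stage C and a pooled ratio of Stage B to Stage C of 151 (counting interval 51.6 to 736).

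The late enzymes varied between the flowers of a stage, and the 3-O-glucosyltransferase and acyltransferase sums of Stages B and C overlapped. Anthocyanidin synthase rose in 2 of 3 unigenes and summed to 147, 89.8 and 361 normalised CPM at Stage B, 2203, 614 and 1619 at Stage C and 222, 2451 and 1131 at Stage A. Dihydroflavonol reductase rose in 5 and fell in 3 of 16 unigenes, with sums of 73.6, 63.4 and 163 at Stage B, 938, 215 and 423 at Stage C and 53.2, 395 and 308.3 at Stage A. In each of these groups flower 2 was the lowest of Stage C, flower 1 the lowest of Stage A and flower 2 the highest of Stage A. The same order was seen in anthocyanidin 3-O-glucosyltransferases, which attach the first sugar and rose in 8 and fell in 3 of 24 unigenes, and in acyltransferases, with 4 risen and 2 fallen of 7. Flower 2 of Stage C had 615 normalised CPM of the former, within the 331 to 662 of Stage B, and 274 of the latter, within the 273 to 374 of Stage B. The same order was also seen in B-ring hydroxylases, which set the hydroxyl pattern behind the hue and rose in 8 and fell in 12 of 30. Of 5 tested unigenes listed as 5-O-glucosyltransferases 1 rose and 1 fell. Their sum was 6.01 to 7.29 normalised CPM at Stage B, 5.78, 45.5 and 6.69 at Stage C and 105, 40.5 and 51.5 at Stage A. The list leaves out the UDP-glycosyltransferase 75C1 matches named below. Of these, Cluster-20417.339468 also matches a cyanidin 3-O-rutinoside 5-O-glucosyltransferase-like protein. It had 235, 108 and 61.8 normalised CPM at Stage A in the fit with 'Delft Blue', more than the listed sum in every flower.

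The counts of flavonoid enzymes depended on single flowers and on the scaling. Without flower 2 of Stage B, 16 of the list's unigenes rose, and with library sizes alone 25 rose and 54 fell. The entry enzymes of phenylpropanoid synthesis, which supply coumaroyl-CoA, rose in 12 and fell in 8 of 50 tested unigenes with TMM, and in 7 and 12 with library sizes alone. Over all tested unigenes 17.9% rose and 17.2% fell with TMM.

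**Figure D2:**
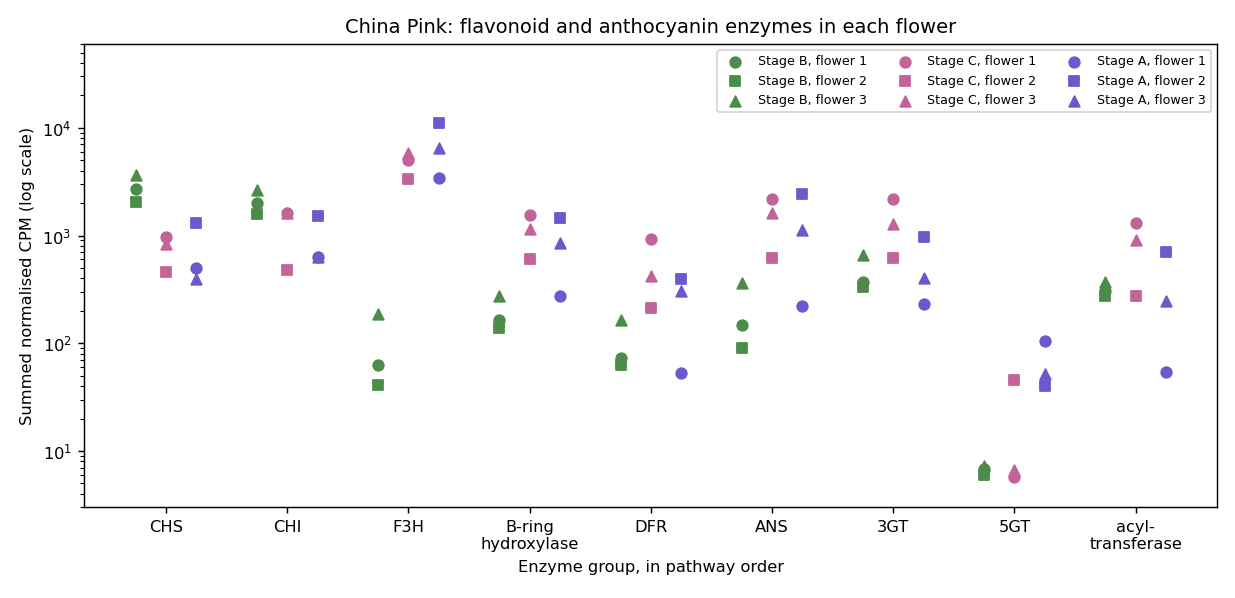
Summed normalised CPM of each enzyme group of flavonoid and anthocyanin synthesis in each of the 9 flowers, on a log axis, with points coloured by stage. The 5-O-glucosyltransferase group leaves out the UDP-glycosyltransferase 75C1 matches. Flavanone 3-hydroxylase goes from 40.8 to 189 at Stage B to at least 3332 later, chalcone synthase is highest at Stage B, and the late enzymes spread widely within Stage A, as in anthocyanidin synthase from 222 to 2451.

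Regulators of the anthocyanin pathway, MYB and bHLH factors and a WD40 protein that act together on the promoters of pathway genes, rose in 16 of 29 tested unigenes and fell in 5, with a median log2 fold change of 1.4. The unigene matching MYB113 (Cluster-20417.182475), in Arabidopsis an activator of anthocyanin synthesis, had 2.78, 2.04 and 3.28 normalised CPM at Stage B, 75.9, 37.3 and 50.6 at Stage C and 25.5, 42.2 and 32.3 at Stage A. Its Stage C flowers did not overlap with Stage B and it rose by 4.34 ± 0.343 on the log2 scale (adjusted p = 2.09e-05). A MYB114 match (Cluster-20417.247286) rose by 2.66 ± 0.567 (adjusted p = 0.00484), from 10.46 to 31.4 normalised CPM at Stage B to 87.2 to 173 at Stage C. Of the 5 that fell, 4 matched a Myb-related protein that in snapdragon represses phenylpropanoid genes (Cluster-20417.290176, Cluster-20417.81213, Cluster-20417.290174 and Cluster-20417.167297), and 1 matched MYB1 (Cluster-20417.104498), with log2 fold changes of -1.32 to -3.65. A further Myb308 match (Cluster-20417.262296) rose by 3.99 ± 0.431.

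Cell division and organ growth genes fell more often than they rose. Of 261 tested cell division unigenes 122 fell and 8 rose (median log2 fold change -1.14), among them 48 fallen and 5 risen of 124 core histones. Cyclins, which drive the cell cycle, fell in 32 of 63 unigenes and rose in none. Replication licensing factors fell in 29 of 51 and rose in 1. The list summed to 3189, 2012 and 2895 normalised CPM at Stage B and 2029, 2167 and 1955 at Stage C, so that its lowest Stage B flower lay within the Stage C range. The abundant histone H2B.1 match (Cluster-20417.240461, log2 fold change -0.02 ± 0.265) was not called. The cyclin-D4-2 match (Cluster-20417.266612), with 1.40 to 3.80 normalised CPM at Stage B, had no counts at Stage C and was at least 98.5-fold lower. Without flower 1 of Stage B, 76 cell division unigenes fell.

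Organ growth and patterning factors fell in 47 of 107 tested unigenes and rose in 5 (median log2 fold change -1.1). Growth-regulating factors and their partners, which promote cell proliferation, fell in 16 of 39 and rose in none, and TCP factors fell in 16 of 37 and rose in 1. ERECTA receptors with their epidermal patterning peptides, which space stomata, fell in 13 of 22 and rose in 1. The EPIDERMAL PATTERNING FACTOR-like protein 9 match (Cluster-20417.257496), in Arabidopsis a peptide that promotes stomata, had 8.08, 11.5 and 7.14 normalised CPM at Stage B and 0.209, 0.174 and 0.0851 at Stage C, a log2 fold change of -5.8 ± 0.635 (adjusted p = 3.62e-05). The 5 that rose were 3 YABBY 2 matches (Cluster-20417.239091, Cluster-20417.252290 and Cluster-20417.115576), which in Arabidopsis mark the lower side of organs, EPIDERMAL PATTERNING FACTOR 2 (Cluster-20417.317593) and the TCP factor PCF5 (Cluster-20417.105925), with log2 fold changes of 1.21 to 4.07. Leaving out flower 1 of Stage B gave 27 fallen unigenes of this list.

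Of 67 MADS-box unigenes, 6 rose and 11 fell, and 3 rose and 21 fell with library sizes alone. With TMM these shares were below or near those of all tested unigenes (17.9% rose and 17.2% fell). The unigene matching MADS-box transcription factor 16 (Cluster-20417.236967), in rice a B class factor needed for the inner floral organs, had 96.8, 77.1 and 139 normalised CPM at Stage B, 2.43, 0.928 and 0.964 at Stage C and 0.163, 0.655 and 0.947 at Stage A. It fell by 6.17 ± 0.6 on the log2 scale (adjusted p = 6.64e-05), with no overlap between Stages B and C.

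Wall, water and sugar genes included some of the larger rises in abundant transcripts. Expansins, which loosen walls, rose in 15 and fell in 11 of 61 tested unigenes, where 17.9% and 17.2% of all tested unigenes rose and fell. The expansin sum went from 337, 289 and 476 normalised CPM at Stage B to 6828, 9831 and 5726 at Stage C and 1916, 1664 and 4195 at Stage A. The most abundant of them, an expansin-A8 match (Cluster-20417.237543), had 28.6, 13.3 and 21.9 normalised CPM at Stage B and 2468, 4810 and 2224 at Stage C (log2 fold change 7.22 ± 0.632, adjusted p = 3.6e-05). Xyloglucan endotransglucosylases, which cut and rejoin wall polymers, rose in 36 and fell in 14 of 99 unigenes. Pectate lyases, which cleave pectin, rose in 37 and fell in 4 of 61, and summed to 269 to 543 normalised CPM at Stage B and 3762 to 5382 at Stage C. The polygalacturonase beta subunit group, in contrast, fell in 8 of 11 unigenes, led by polygalacturonase 1 beta-like protein 2 (Cluster-20417.236697, log2 fold change -1.83 ± 0.336, mean FPKM 8011 at Stage B).

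Aquaporins, the water channels, rose in 25 and fell in 15 of 93 tested unigenes and summed to 3989, 2946 and 4379 normalised CPM at Stage B and 23290, 13390 and 18300 at Stage C. Vacuolar aquaporin TIP1-1 (Cluster-20417.238579) was at 851, 756 and 975 normalised CPM at Stage B and at 5935, 1796 and 4319 at Stage C (log2 fold change 2.22 ± 0.48, adjusted p = 0.00511), and PIP1-1 of the plasma membrane (Cluster-20417.237784) rose by 4.24 ± 0.361. Invertases, which split sucrose, rose in 17 and fell in 4 of 41 unigenes. Their sum was 344, 259 and 405 normalised CPM at Stage B, 9013, 3760 and 5605 at Stage C and 1134, 1917 and 1945 at Stage A. SWEET sugar transporters rose in 15 and fell in 3 of 35. The vacuolar ATPase, which acidifies the vacuole, rose in 57 of 101 unigenes and fell in 2, and its sum was 1789 to 2378 at Stage B and 5548 to 6099 at Stage C.

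With library sizes alone, the split of several of these lists turned or narrowed. Aquaporins then had 16 risen and 33 fallen unigenes, and sugar transport and cleavage 42 and 47 (54 and 21 with TMM). Vacuolar pumps had 24 and 25 (58 and 7 with TMM), pectin modification 63 and 106 (82 and 73 with TMM) and cell wall loosening 49 and 41 (51 and 25 with TMM). Photosynthesis (1 risen and 154 fallen), cell division (3 and 166), organ growth (2 and 60), chlorophyll breakdown (17 and 4), scent (49 and 10) and anthocyanin regulators (12 and 7) kept their side. Single flowers moved some of these counts. Without flower 2 of Stage B, 48 pectin unigenes rose and 6 heat shock unigenes fell. Without flower 1 of Stage B, 37 pectin, 5 gibberellin, 11 lipid-transfer and 31 senescence unigenes fell and 6 phenylpropanoid entry and 7 pollen or anther unigenes rose. Without flower 3 of Stage B, 21 ethylene and 4 phenylpropanoid entry unigenes fell, and without flower 3 of Stage C 3 vacuolar pump unigenes fell.

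Carotenoid, auxin and senescence genes rose more often than they fell with TMM, and not all of these splits held with library sizes alone. Cuticle genes rose in 85 and fell in 54 of 228 tested unigenes (64 and 80 with library sizes alone). The very-long-chain aldehyde decarbonylase GL1-5 match (Cluster-20417.237837), of an enzyme family of wax synthesis, was at 32.9, 25.7 and 68.2 normalised CPM at Stage B and 1563, 1795 and 1711 at Stage C (log2 fold change 5.32 ± 0.447, adjusted p = 2.89e-05). Lipid-transfer proteins, small secreted carriers of lipids, rose in 26 and fell in 17 of 61 (22 and 20 with library sizes alone). Carotenoid genes rose in 38 and fell in 14 of 90 (24 and 21 with library sizes alone), of which the cleavage enzymes rose in 21 and fell in 4 of 43. The matches of the 9-cis-epoxycarotenoid dioxygenases NCED6 (Cluster-20417.114217) and NCED3 (Cluster-20417.334204), which in Arabidopsis make the precursor of abscisic acid, had no counts at Stage B and were at least 14600-fold and 18200-fold higher at Stage C. In normalised CPM they were at 106, 388 and 246 and at 144, 459 and 320 in the Stage C flowers.

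Auxin genes rose in 103 and fell in 40 of 257 tested unigenes with TMM, and in 66 and 76 with library sizes alone. The Aux/IAA repressors of auxin response rose in 21 of 30 and fell in 1. The IAA4 match (Cluster-20417.333840) went from 0, 0 and 0.149 normalised CPM at Stage B to 66.7, 144 and 170 at Stage C (log2 fold change 11.36 ± 1.017, adjusted p = 2.91e-05). Ethylene genes rose and fell in 45 each of 208 (26 and 88 with library sizes alone), and gibberellin genes rose in 20 and fell in 15 of 83 (15 and 24), shares near those of all tested unigenes. Senescence and proteolysis genes rose in 112 and fell in 49 of 298 (61 and 76 with library sizes alone). Among them, autophagy proteins, which recycle cell contents, rose in 38 of 55 and fell in 1. The NAC83 match (Cluster-20417.203345), a NAC transcription factor, rose by 6.88 ± 0.564 on the log2 scale. Heat shock proteins rose in 62 and fell in 17 of 254 (37 and 51 with library sizes alone).

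**Figure D3:**
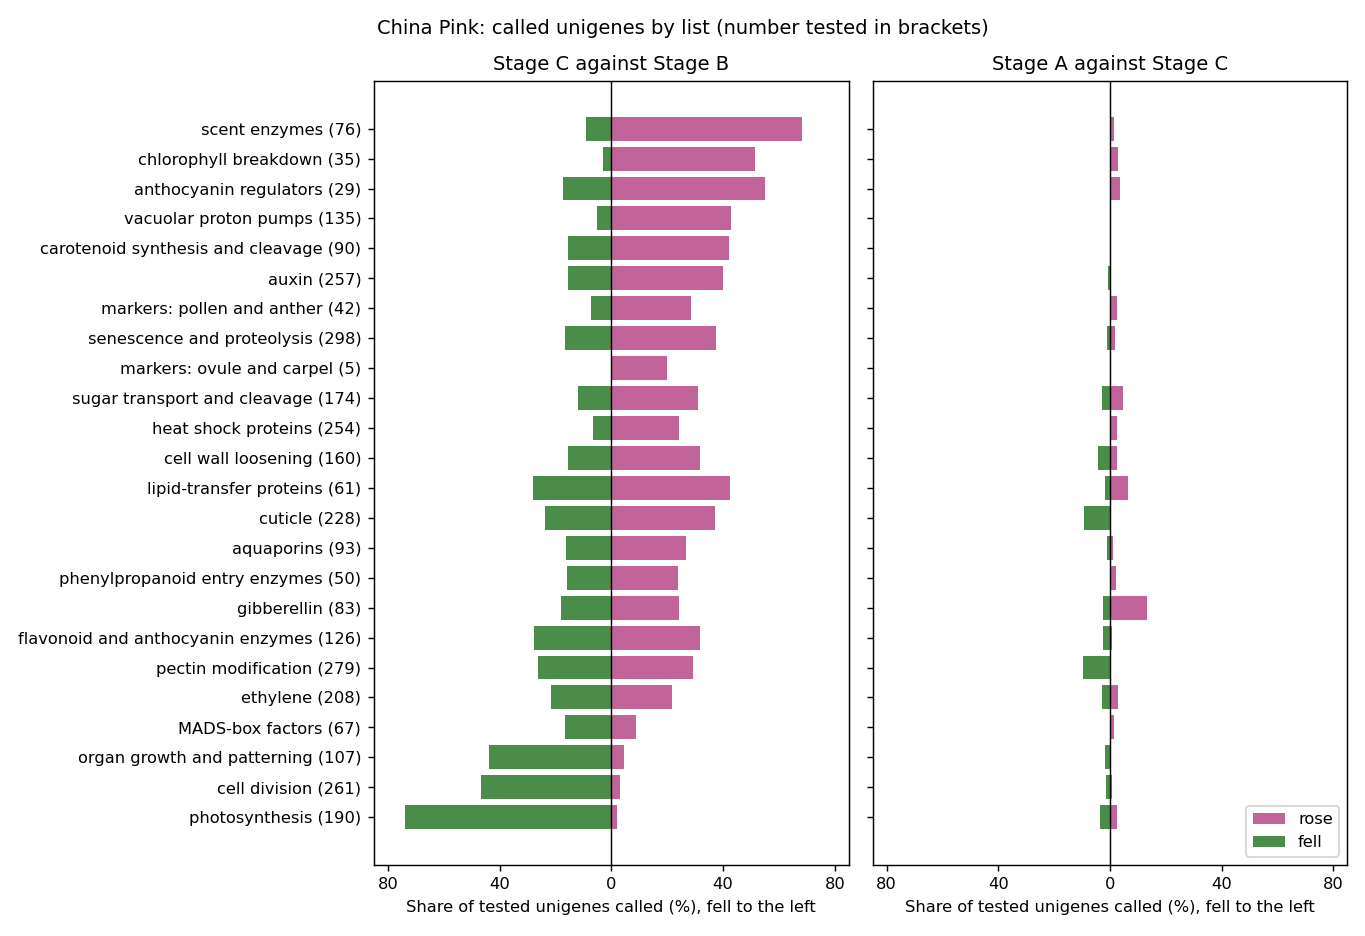
Percent of the tested unigenes of each list that rose (right of 0) or fell (left of 0) from Stage B to Stage C and from Stage C to Stage A, with TMM scaling. Photosynthesis (140 of 190 fallen) and scent enzymes (52 of 76 risen) reach farthest in the first step, and the second step has few calls in any list.

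From coloured bud to full anthesis, far fewer unigenes were called. Of the same 120336 unigenes 2037 rose (1.69%) and 1608 fell (1.34%), of which 1958 and 1579 kept their direction in each of the 3 partitions. Of all risen and fallen unigenes, 2031 and 1597 had flowers that did not overlap between Stages C and A in normalised CPM, as was so in 15360 (12.8%) and 14607 (12.1%) of all tested unigenes. The Stage C flowers are those of the previous comparison, so that the 2 comparisons are not independent. Whether a unigene was called rested on single flowers. Both counts were 0 without flower 1 or without flower 3 of Stage A, and the total was 3497 without flower 2 of Stage A. It was 203, 10485 and 7 without flower 1, 2 or 3 of Stage C. It was 41, 36 and 2292 without flower 1, 2 or 3 of Stage B, which are not in this comparison but enter its fit. A fit to the 6 flowers of Stages C and A alone called none in either direction (edgeR quasi-likelihood), against 9710 and 9820 unigenes at an unadjusted p under 0.05 in the fit of 9 flowers and 4884 and 4553 called by DESeq2. The share of called unigenes that rose was 55.9% with TMM, 39.1% with library sizes alone (median log2 fold change of all tested unigenes -0.18 against 0.0) and 43.2% with log2(FPKM + 1).

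The unigenes of smallest p that rose were a gibberellin-regulated protein 1 match, probable purple acid phosphatase 20 and a glutathione S-transferase. Gibberellin-regulated proteins are small secreted peptides rich in cysteine, and this match (Cluster-20417.157280) was at 7.43, 4.41 and 10.1 normalised CPM at Stage C and at 176, 121 and 127 at Stage A (log2 fold change 4.27 ± 0.463, adjusted p = 0.0206). Its groups lay far apart, and it was called in 6 of 9 fits that left out 1 flower. Most others held in fewer fits. Of 31 called unigenes of this step chosen by the naming rule given below, 0 were called without flower 1 or 3 of Stage A or flower 3 of Stage C. Without flower 1 or 2 of Stage B 2 and 3 were called, and 7 without flower 1 of Stage C. Purple acid phosphatase 20 (Cluster-20417.112572), of a family that releases phosphate, went from 0.0262, 0.319 and 0.199 normalised CPM to 7.34, 3.96 and 6.17 (5.01 ± 0.603, adjusted p = 0.0206). The glutathione S-transferase 1 isoform D match (Cluster-20417.107853), whose Swiss-Prot description is of an insect enzyme, had 0, 0.0580 and 0.0284 normalised CPM at Stage C and 5.98, 1.31 and 6.33 at Stage A (7.2 ± 0.865, adjusted p = 0.0241), a pooled ratio of 163 (counting interval 55.4 to 794) over 3 counts at Stage C.

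Calreticulin (Cluster-20417.239929), a calcium-binding chaperone of the endoplasmic reticulum, fell from 194, 68.1 and 184 normalised CPM at Stage C to 9.55, 16.6 and 15.2 at Stage A (log2 fold change -3.43 ± 0.42, adjusted p = 0.0241). The lowest Stage C flower was above every Stage A flower. The chloroplast 29 kDa ribonucleoprotein B match (Cluster-20417.234180), which binds plastid RNA, fell by 2.31 ± 0.281 on the log2 scale and had also fallen by 2.43 ± 0.273 in the step before. Polygalacturonase inhibitor 2 (Cluster-20417.252650), a wall protein that blocks fungal pectin-cleaving enzymes, rose by 2.75 ± 0.37 in the first step and fell by 3.1 ± 0.379 in the second (adjusted p = 0.0241).

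Of 83 tested gibberellin unigenes 11 rose and 2 fell from Stage C to Stage A, and these 13 were gibberellin-regulated (GASA) and Snakin peptides, a group with 26 tested members. The group summed to 129, 94.2 and 226 normalised CPM at Stage B, 1105, 648 and 1289 at Stage C and 5821, 5098 and 2907 at Stage A, so that the stages did not overlap. Snakin-2, in potato an antimicrobial peptide, was matched by a unigene (Cluster-20417.159591) at 47.2, 14.4 and 44.0 normalised CPM at Stage C and 426, 387 and 249 at Stage A (log2 fold change 3.33 ± 0.42, adjusted p = 0.0241). The gibberellin-regulated protein 11 match (Cluster-20417.159584) rose by 5.51 ± 0.717 (adjusted p = 0.0263), and the 2 that fell both matched gibberellin-regulated protein 6 (Cluster-20417.237188, log2 fold change -5.28, and Cluster-20417.231069, -4.2). No gibberellin unigene was called upward without flower 3 of Stage C, as without flower 1 or 3 of Stage A, and without the 3 flowers with potyvirus-like counts 11 rose and 2 fell.

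Called pectin and cuticle genes mostly fell in this step. Pectin modification had 27 fallen and 0 risen of 279 tested unigenes (edgeR quasi-likelihood, between 0 and 54 fallen without 1 flower), of which 22 were among the 61 pectate lyases, whose sum went from 5382, 3762 and 3896 normalised CPM at Stage C to 1330, 2129 and 2107 at Stage A. The groups of this sum did not overlap. The probable pectate lyase 20 match (Cluster-20417.225718) was at 7.72, 0.551 and 1.53 normalised CPM at Stage C and at 0, 0.187 and 0.0306 at Stage A (log2 fold change -5.43 ± 1.131, adjusted p = 0.038). Cuticle genes fell in 21 of 228 unigenes, 12 of them 3-ketoacyl-CoA synthases, which lengthen fatty acids for wax, and rose in 1, a very-long-chain 3-oxoacyl-CoA reductase 1 match (Cluster-20417.109564, log2 fold change 4.64 ± 0.5, adjusted p = 0.0241). Expansins fell in 6 of 61 and rose in none. Without flower 1 of Stage B, none of the cuticle, pectin or wall loosening unigenes was called downward.

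Invertases fell in 5 of 41 unigenes and rose in 1. The fallen ones were 3 beta-fructofuranosidase 1 matches (Cluster-20417.148428, Cluster-20417.236920 and Cluster-20417.242837), a soluble isoenzyme I (Cluster-20417.274891) and an acid beta-fructofuranosidase (Cluster-20417.141535), with log2 fold changes of -2.62 to -3.46. The most abundant of these (Cluster-20417.242837) had 7.55, 3.86 and 31.0 normalised CPM at Stage B, 2916, 724 and 1556 at Stage C and 107, 229 and 138 at Stage A, a rise of 6.94 ± 0.914 followed by a fall of 3.46 ± 0.776 on the log2 scale (adjusted p = 0.0449). Its level was highest in the coloured buds, with no overlap between stages.

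In this step 1.69% of all tested unigenes rose and 1.34% fell. Ethylene genes rose in 6 and fell in 6 of 208 unigenes, 5 of the 6 risen ones being 1-aminocyclopropane-1-carboxylate oxidases, which make ethylene. That group summed to 173, 194 and 166 normalised CPM at Stage C and to 1729, 286 and 556 at Stage A. Flower 1 of Stage A was far above the other flowers. The ACC oxidase 1 match (Cluster-20417.221163) was at 18.3, 20.8 and 31.8 normalised CPM at Stage C and 537, 80.7 and 159 at Stage A (log2 fold change 3.46 ± 0.707, adjusted p = 0.0389).

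Heat shock proteins, chaperones of unfolded proteins, rose in 6 and fell in 0 of 254 unigenes (edgeR quasi-likelihood, and 7 and 3 with library sizes alone). Over all tested unigenes 1.69% rose and 1.34% fell in this step. Heat shock protein 81-1 (Cluster-20417.236353) had 25.7, 26.8 and 27.8 normalised CPM at Stage C and 47.7, 136 and 778 at Stage A (log2 fold change 3.58 ± 0.8, adjusted p = 0.0445). Flower 3 of Stage A, 1 of the 3 with potyvirus-like counts, was the highest, and the list summed to 23350 normalised CPM in it against 5944 and 6864 in the other Stage A flowers. Of the others with such counts, flower 3 of Stage B had the lowest sum of its stage (4560 against 4718 and 5076). Flower 2 of Stage C had the highest (8126 against 4503 and 4945). A link between these counts was not tested. Flavonoid enzymes had 3 fallen of 126 tested unigenes, of chalcone synthase D (Cluster-20417.194508, log2 fold change -1.72) and anthocyanidin 3-O-glucosyltransferase 4 (Cluster-20417.280393, -4.88, and Cluster-20417.139690, -1.33), and 1 risen, anthocyanidin 5,3-O-glucosyltransferase (Cluster-20417.243883, 1.98 ± 0.447, adjusted p = 0.0452). Of the scent enzymes, eugenol synthase 1 (Cluster-20417.279757) rose, by 2.68 ± 0.598. Vacuolar pumps and carotenoid genes had no called unigene in this step (edgeR quasi-likelihood), against 1 fallen vacuolar pump and 3 fallen carotenoid unigenes with library sizes alone.

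Photosynthesis genes had 7 fallen and 5 risen of 190 unigenes between Stages C and A, where 1.34% of all tested unigenes fell and 1.69% rose. The 5 that rose were photosystem II psbY (Cluster-20417.209364, log2 fold change 1.88), the photosystem I antenna protein 3 (Cluster-20417.249380, 1.51) and the chlorophyll a-b binding proteins 3C (Cluster-20417.238880, 1.87), CP26 (Cluster-20417.160084, 2.39) and a further one (Cluster-20417.238935, 1.87 ± 0.411). The last stood at 437, 563 and 265 normalised CPM at Stage B, 6.25, 7.98 and 4.34 at Stage C and 31.3, 11.3 and 25.4 at Stage A, so that its Stage A level remained far below that of Stage B.

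Tube and lobes of the same flower were compared in their change from Stage B to Stage C, with the flower as a block in 27 libraries. Of 102858 tested unigenes, 3460 (3.36%) changed more upward or less downward in the tube than in the mean of both lobes and 1233 (1.2%) changed more upward or less downward in the lobes. Photosynthesis genes had 95 of 188 tested unigenes in the first direction and 0 in the other (edgeR quasi-likelihood), with a median log2 difference of 2.0. At Stage B their summed level per library was 42820, 45200 and 24450 normalised CPM in the outer lobes, 29760, 33960 and 22340 in the inner lobes and 10300, 9439 and 8627 in the tube. Green lobes of every flower were above the tube, whereas at Stage C the outer lobes had 1073 to 1657, the inner lobes 1053 to 1412 and the tube 1518 to 1646. The count of 95 ranged from 78 to 100 without 1 flower, and without flower 3 of Stage C 2347 unigenes were higher and 794 lower in all.

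Cell division genes showed the opposite order, with 42 of 249 unigenes lower and 4 higher in the tube's change (32 to 44 lower without 1 flower). At Stage B the tube had 5870, 2963 and 4747 normalised CPM, the outer lobes 2130, 1776 and 2028 and the inner lobes 2121, 1673 and 2107. At Stage C the 9 libraries lay between 1949 and 2239. The 4 higher ones were the cyclins D4-1 (Cluster-20417.251689), S13-7 (Cluster-20417.193281), B1-1 (Cluster-20417.210142) and D6-1 (Cluster-20417.250702), with log2 differences of 1.37 to 2.44. The lower unigene of smallest p was a histone H2A.2 match (Cluster-20417.180491), with mean FPKM in outer lobes, inner lobes and tube of 8.01, 8.74 and 88.0 at Stage B and 14.7 in the outer lobes, 9.24 in the tube and a value between these in the inner lobes at Stage C (log2 difference -3.95 ± 0.24, adjusted p = 5.38e-11).

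Early nodulin-like protein 3 (Cluster-20417.227898), of a plant protein family first known from legume nodules, was the higher unigene of smallest p. Its mean FPKM was 33.03, 22.7 and 11.6 in outer lobes, inner lobes and tube at Stage B and 0.133, 0.343 and 22.7 at Stage C, with a tube level at Stage C far above that of the lobes (log2 difference 7.7 ± 0.434, adjusted p = 9.34e-14). Ethylene genes were higher in 23 and lower in 2 of 202 unigenes, sugar genes in 20 and 0 of 161, and phenylpropanoid entry genes in 10 and 0 of 49. Without flower 3 of Stage C 9 ethylene unigenes were higher, and without flower 1 of Stage C 5 phenylpropanoid entry unigenes. Among scent enzymes, the phenylacetaldehyde synthase unigene (Cluster-20417.331823) was lower in the tube's change by 3.46 ± 0.824 (adjusted p = 0.00762), with 2 coniferyl alcohol acyltransferase matches (Cluster-20417.180374 and Cluster-20417.194496) and a myrcene synthase match (Cluster-20417.131714). Higher ones were benzoate carboxyl methyltransferase (Cluster-20417.238718, 1.57) and phenylacetaldehyde reductase (Cluster-20417.228603, 1.5).

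From Stage C to Stage A, 193 unigenes (0.188%) were higher and 311 (0.302%) lower in the tube's change, and 40 and 122 without flower 1 of Stage C. A WAT1-related protein match (Cluster-20417.332324), of a family of vacuolar and membrane transporters, had mean FPKM of 4.51, 5.60 and 0.353 in outer lobes, inner lobes and tube at Stage C and 0.190, 0.173 and 0.957 at Stage A (log2 difference 6.14 ± 0.544, adjusted p = 9.83e-07). Peamaclein (Cluster-20417.235697), a peptide of the gibberellin-regulated family known as a peach allergen, went from 55.5, 68.3 and 205 to 43.6, 50.8 and 41.1 (-2.21 ± 0.234, adjusted p = 1.44e-05). Heat shock proteins were lower in 15 and higher in 0 of 245 unigenes (edgeR quasi-likelihood), and 4 were lower without flower 3 of Stage A. In that flower the list summed to 27040 normalised CPM in outer lobes, 25880 in inner lobes and 15420 in the tube, against 4358 to 7484 in the libraries of the other 2 Stage A flowers. Flavonoid enzymes were lower in 8 and higher in 0 of 120, and 1 was lower without flower 1 of Stage C.

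**Figure D4:**
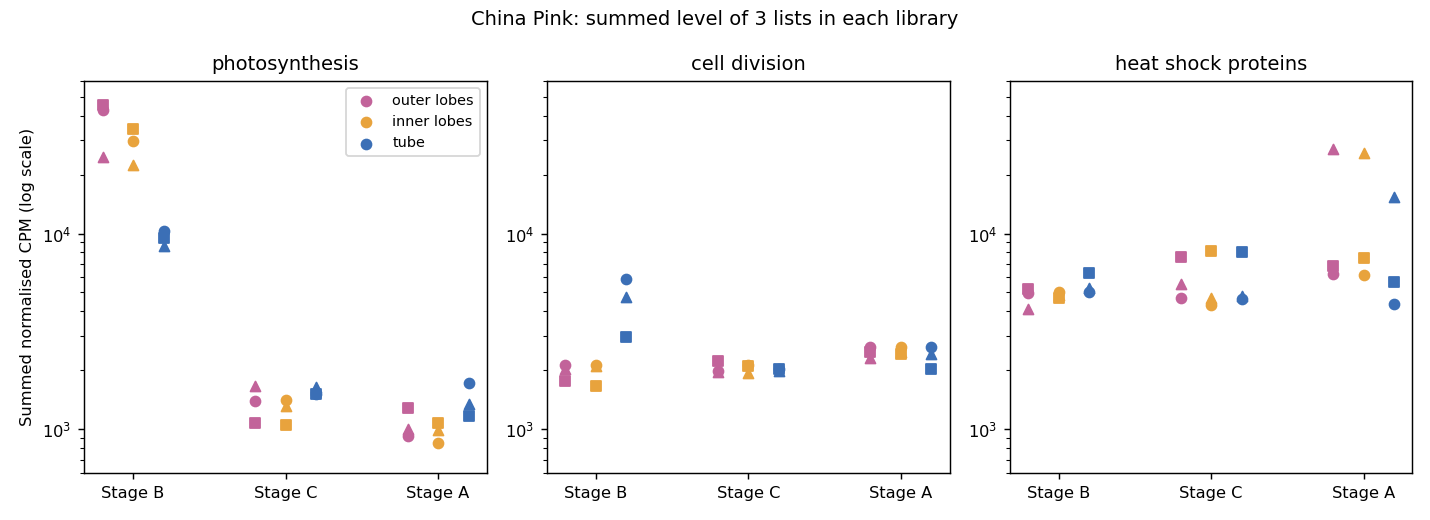
Summed normalised CPM of photosynthesis, cell division and heat shock genes in each of the 27 libraries, by stage and partition, on a log axis, with 1 point per flower. Photosynthesis in green lobes (22340 to 45200) lies above the green tube (8627 to 10300), cell division in the green tube (2963 to 5870) above the green lobes, and the 3 libraries of 1 Stage A flower stand above the rest in heat shock genes (15420 to 27040).

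The stage changes of 'China Pink' were compared with those of 'Delft Blue', its stated parent, over 9 flowers each. Of 145331 tested unigenes none was called for a different change from Stage B to Stage C or from Stage C to Stage A (0.0% in each direction, edgeR quasi-likelihood), while 6617 and 8084 (first step) and 2997 and 4594 (second step) were higher and lower in 'China Pink' at an unadjusted p under 0.05. DESeq2 called 527 and 630 in the first step and 10 and 13 in the second, and limma-trend called none. Without flower 2 of Stage B of 'China Pink', 7 were higher and 69 lower in the first step. Flowers of the 2 cultivars with the same number tended to deviate together within a stage (r 0.134 to 0.517). The range for different numbers (-0.489 to 0.22) overlapped with this. Since deviations were taken from a mean of 3 flowers, higher r for the same number comes with lower r for different numbers. With that number within a stage as a block, 792 unigenes (0.545%) changed more upward and 2024 (1.39%) more downward in 'China Pink' in the first step. In the second step 0 and 3 (0.0% and 0.00206%) were called (edgeR quasi-likelihood), against 3540 and 5387 at an unadjusted p under 0.05 in the same fit. The block was chosen after the data were seen. In the first step it also gave 4 of 10 tested potyvirus-like unigenes as higher, and 0 without pair 3 of Stage B. The Stage C counts of that list in 'China Pink' lay almost wholly in flower 2, so that the fit can call signals of single flowers. Without pair 1, 2 or 3 of Stage B the first step gave 157 and 622, 227 and 799, and 430 and 839 unigenes. Without pair 1 or 2 of Stage C it gave 335 and 895, and 204 and 994. With library sizes alone it gave 848 and 1534. The second step gave 0 and 0 without pair 2 of Stage C, 1 and 7 without pair 1 and 3 and 100 without pair 3 of that stage, and 13 and 16 without pair 2 of Stage A.

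With the block, flavonoid and anthocyanin enzymes changed less upward or more downward in 'China Pink' than in 'Delft Blue' in 31 of 141 tested unigenes from Stage B to Stage C, and 0 changed the other way (edgeR quasi-likelihood, 7 at an unadjusted p under 0.05). Without the block, 0 of all tested unigenes were called, so that these calls rest on a block chosen after the data were seen. The median log2 difference of the flavonoid list with the block was -0.97, against -0.02 over all tested unigenes. The 31 were 27 with library sizes alone and 20 without pair 2 of Stage B. They were spread over the pathway, with 5 of 6 chalcone isomerase unigenes, 3 of 12 of flavanone 3-hydroxylase, 4 of 19 of dihydroflavonol reductase, 2 of 3 of anthocyanidin synthase, 4 of 37 of B-ring hydroxylases, 9 of 24 of 3-O-glucosyltransferases and 3 of 7 of acyltransferases, but 1 of 26 of chalcone synthase.

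The leucoanthocyanidin dioxygenase match (Cluster-20417.239040), the anthocyanidin synthase of the pathway, had 137, 82.5 and 332 normalised CPM in Stage B flowers of 'China Pink' and 21.7, 18.8 and 82.0 in those of 'Delft Blue'. At Stage C it had 1988, 548 and 1480 against 1876, 999 and 1300 (log2 difference of the change with the block -2.49 ± 0.303, adjusted p = 0.003). The green buds of 'China Pink' lay above those of 'Delft Blue', whereas the coloured buds overlapped. The dihydroflavonol 4-reductase match (Cluster-20417.237871) had 21.3, 17.6 and 57.7 at Stage B against 4.10, 5.20 and 13.0, and 378, 80.9 and 171 at Stage C against 461, 112.5 and 189 (-2.42 ± 0.291, adjusted p = 0.0028). Summed over the flavonoid list, Stage B flowers had 5904, 4772 and 8335 normalised CPM in 'China Pink' and 2810, 2482 and 3471 in 'Delft Blue', and Stage C flowers 15470, 6502 and 13750 against 14920, 9765 and 12490.

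With the block, 3 of 33 tested anthocyanin regulators were lower, all matching MYB factors of the anthocyanin group in Arabidopsis. The MYB114 match (Cluster-20417.247286) had 16.8, 10.8 and 31.3 normalised CPM in green buds of 'China Pink' and 2.49, 2.53 and 6.06 in those of 'Delft Blue', and 170, 85.3 and 108 against 128, 107 and 120 at Stage C (-2.45 ± 0.285, adjusted p = 0.00269). The others matched MYB113 (Cluster-20417.249409, -1.9) and MYB114 (Cluster-20417.250369, -1.7). Pectin genes were lower in 24 of 303 unigenes (12 without pair 1 of Stage C), aquaporins in 10 of 101 (3 without pair 3 of Stage B) and photosynthesis genes in 12 of 206 (2 without pair 1 of Stage B). A chlorophyll a-b binding protein 40 match (Cluster-20417.238061) was at 540, 672 and 468.2 normalised CPM in green buds against 516, 613 and 538, and at 13.6, 7.63 and 9.13 in coloured buds against 148, 48.3 and 30.2 (-2.65 ± 0.413, adjusted p = 0.00812).

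Among all unigenes with a Swiss-Prot match in the fit with the block, those lower of smallest p were a xyloglucan glycosyltransferase 2 match (Cluster-20417.256795, -3.29) and matches of the glucomannan 4-beta-mannosyltransferases 4 (Cluster-20417.255369, -3.43) and 2 (Cluster-20417.237623, -3.28), of families that make wall polysaccharides. The first had 31.4, 15.2 and 32.6 normalised CPM in green buds of 'China Pink' and 8.39, 5.34 and 11.3 in those of 'Delft Blue', and 5.40, 0.596 and 1.74 against 14.2, 2.58 and 5.02 in coloured buds. The higher ones were an 18 kDa seed maturation protein (Cluster-20417.183536, 6.6), cytochrome P450 71AU50 (Cluster-20417.304395, 2.66) and a UDP-glycosyltransferase 75C1 match (Cluster-20417.339468). The last is outside the flavonoid list. The seed maturation match was uneven between Stage C flowers, at 0.488, 43.2 and 5.37 normalised CPM in 'China Pink' against 0.0227, 2.69 and 1.37 in 'Delft Blue'. In green buds it had 0.573, 1.49 and 0.707 against 8.25, 13.5 and 7.75. The 75C1 match was at 0.0257, 84.3 and 0.0853 normalised CPM in the Stage C flowers of 'China Pink' and at 0 in those of 'Delft Blue', so that no fitted difference is given, and at 235, 108 and 61.8 against 187, 113.2 and 50.4 at Stage A. Flower 2 of 'China Pink', which held potyvirus-like counts, was the only Stage C flower of either cultivar above 0.0853. This 75C1 unigene, a further 75C1 match (Cluster-20417.88406) and a crocetin glucosyltransferase match (Cluster-20417.275597) were the 3 that were lower from Stage C to Stage A. They were highest in flower 2 among the Stage C flowers, with 20.4 and 27.5 normalised CPM for the other two.

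Against the mean change of the other 6 cultivars over 63 flowers, 1684 of 202252 unigenes (0.833%) changed more upward and 1432 (0.708%) more downward in 'China Pink' from Stage B to Stage C. Photosynthesis genes were lower in 57 of 242 unigenes and higher in 1, a rubisco activase match (Cluster-20417.83082, log2 difference 1.58). Their summed level on this scale was 26090, 28550 and 17160 normalised CPM in the Stage B flowers of 'China Pink' (mean 23930), against means of 27580 to 33910 in the other cultivars. At Stage C it was 1405, 1236 and 1534 in 'China Pink' (mean 1392) and 2924, 2420 and 1735 in 'Delft Blue' (mean 2360). It was between 3698 ('Jan Bos') and 10180 ('Peter Stuyvesant') in the means of the other 5. 'China Pink' coloured buds were below every 'Delft Blue' flower. At Stage A its mean was 1179 against 1326 in 'Delft Blue' and 1397 in 'Peter Stuyvesant', 1982 to 5659 being the means elsewhere. Without flower 2 of Stage C, 26 photosynthesis unigenes were lower, of 444 higher and 328 lower unigenes in all, and without flower 1 of Stage C 2647 and 2113 were called.

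Scent enzymes summed to 10450, 31480 and 22480 normalised CPM in coloured buds of 'China Pink', a mean of 21470 ± 10550 (SD of 3 flowers) against means of 1475 to 14740 in the other 6 cultivars, 'Delft Blue' included. Flower 1 of 'China Pink' lay below the highest of these means. At Stage A they summed to 34210 ± 6592 against 32340 ± 3596 in 'Delft Blue' and 11520 to 22270 elsewhere. Of 96 scent unigenes, 2 were called in the change from Stage B to Stage C, both of them matches of phenylacetaldehyde synthase (Cluster-20417.254688, log2 difference 5.56 ± 1.099, adjusted p = 0.00279, and Cluster-20417.331823, 5.29 ± 1.369, adjusted p = 0.0275). Against 'Delft Blue' alone, 1 of 80 tested scent unigenes was higher and 1 lower with the block (median log2 difference 0.21), and 0 were called without it. In the flavonoid list, 4 of 164 tested unigenes were lower, matching dihydroflavonol 4-reductase (Cluster-20417.143035, -3.87, and Cluster-20417.213930, -2.95) and chalcone synthase (Cluster-20417.247379, -2.6, and Cluster-20417.236295, -2.02), and 1 was higher, an anthocyanidin 3-O-glucosyltransferase 4 match (Cluster-20417.157235, 3.37). Over all tested unigenes 0.708% were lower and 0.833% higher. The MADS-box transcription factor 16 match (Cluster-20417.236967) fell more in 'China Pink', by 3.36 ± 0.827 on the log2 scale (adjusted p = 0.019).

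The guanine nucleotide-binding protein gamma 3 match (Cluster-20417.190541), a subunit of the G proteins that pass signals from membrane receptors, was the higher unigene of smallest p. It went from 1.07, 0.938 and 0.616 to 3.93, 3.68 and 3.01 normalised CPM between Stages B and C. Its mean FPKM went from 3.04 to 7.46 in 'China Pink' and from 5.12 to 3.11 in 'Delft Blue' (log2 difference 4.99 ± 0.484, adjusted p = 3.5e-09). In tubes alone its stage change in 'China Pink' was -0.45 on the log2 scale, against 2.01 in whole flowers. The lower one was a homeobox protein knotted-1-like 6 match (Cluster-20417.163646), of a family that keeps meristem cells undifferentiated, with a mean FPKM of 9.32 at Stage B and 4.28 at Stage C in 'China Pink' and 11.2 and 4.88 in 'Delft Blue', and 1.17 and 4.19 in 'City of Haarlem' (log2 difference -2.12 ± 0.235, adjusted p = 2.26e-07).

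From Stage C to Stage A, 51 unigenes (0.0252%) changed more upward and 57 (0.0282%) more downward than in the other 6 cultivars, and 6 and 1 without flower 1 of Stage A or 313 and 354 without flower 2 of Stage A. Those of smallest p were a tRNA modification GTPase MnmE match (Cluster-20417.232832), with 2.41, 6.44 and 3.06 normalised CPM at Stage C and 64.9, 6.92 and 32.9 at Stage A (log2 difference 2.64 ± 0.387, adjusted p = 0.00273), and the ubiquitin ligase UPL1 (Cluster-20417.210714), with 2.70, 3.19 and 2.55 at Stage C and 0.845, 1.12 and 1.04 at Stage A (-1.65 ± 0.297, adjusted p = 0.0226). The mean FPKM of MnmE (Cluster-20417.232832) went from 1.46 to 11.3 in 'China Pink' and from 1.06 to 3.85 in 'Delft Blue'. Without flower 1 of Stage A neither was called, nor was UPL1 without flower 3 of Stage A. Photosynthesis genes were higher in 4 of 242 unigenes, all of them chlorophyll a-b binding proteins (Cluster-20417.238700, Cluster-20417.242330, Cluster-20417.238880 and Cluster-20417.238477), with log2 differences of 2.64 to 3.09. A heat shock 70 kDa protein 4 match (Cluster-20417.267203) was higher by 4.94 ± 1.063 (adjusted p = 0.049). Without flower 1 of Stage A none of these photosynthesis and heat shock unigenes was called (edgeR quasi-likelihood), and 20 heat shock unigenes were higher without flower 2 of Stage A.

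**Figure D5:**
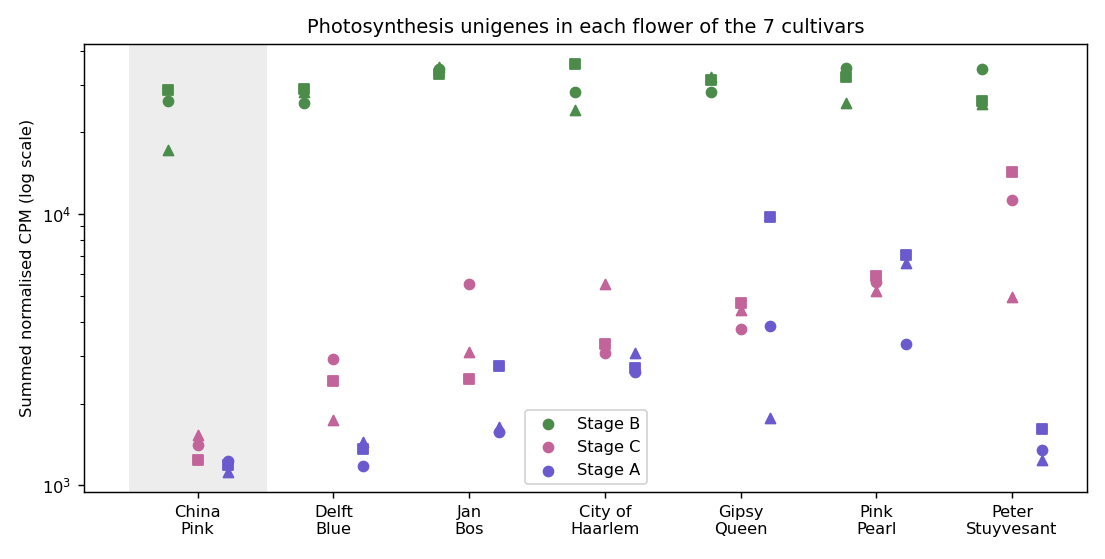
Summed normalised CPM of photosynthesis genes in each of the 63 flowers of 7 cultivars at Stages B, C and A, on a log axis, with 'China Pink' shaded. In coloured buds the 3 flowers of 'China Pink' (1236 to 1534) lie below those of 'Delft Blue' (1735 to 2924) and below the means of the other cultivars (3698 to 10180).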

How the data were processed

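RNA-Seq libraries of poly-A RNA were prepared by the authors from 27 perianth partitions of 9 'China Pink' flowers and sequenced as paired-end reads. Clean reads of all 189 libraries were assembled by the authors with Trinity, clustered with CORSET and quantified with RSEM on Bowtie alignments, which gave 494326 unigenes, of which 98561 carry a Swiss-Prot match. The deposited tables hold expected counts per unigene and library, and FPKM computed by the authors from these counts and an effective length. Counts of reads per library and the percent mapped were also deposited (63.26 to 70.07% mapped in 'China Pink').

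Rounded expected counts of the 3 partitions were added up per flower. Unigenes that reached 10 counts in 3 or more units were scaled by TMM and tested with edgeR 4.0.16 (glmQLFit and glmQLFTest, R 4.3.3), with an adjusted p under 0.05 and a log2 fold change over 1 as thresholds. The stages were compared in a fit of 9 flowers, tube and lobes in 27 libraries with the flower as a block, and cultivars in fits of 18 and 63 flowers through the cultivar by stage interaction. On simulated counts of 20000 unigenes, 83.2% of 4-fold and 27.9% of 2.5-fold changes from Stage B to Stage C were recovered, and 82% and 21.3% from Stage C to Stage A. Of the calls, 0 to 5.7% were false. The simulation set a dispersion of 0.1 for every unigene and changed only 178 to 189 tested ones. Many more unigenes were called in the data, and their spread was not used, so that these shares need not hold for these flowers. Alternatives with DESeq2 1.42.0, limma 3.58.1, other scaling, filters, units and single flowers left out were also run.

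Unigenes named in the text were, for both stage comparisons, the 3 risen and 3 fallen of smallest p with a Swiss-Prot description, a mean FPKM of at least 5 in the higher stage, flowers that do not overlap and 1 direction in all partitions, together with the 2 most abundant members of each list, the called member of largest change per list, the 2 unigenes of highest FPKM per stage, and the higher and lower unigene of smallest p per interaction. Not all of these are printed. Members behind counts of 5 or fewer, unigenes called only with the replicate block, and the perianth, gibberellin and pectin unigenes outside this rule were named after their values were seen. The members and gene lists were chosen with earlier results of these data known, and the lists were revised after the annotations were seen.

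Within a stage, deviations of partitions with the same replicate number correlated (27 pairs, r 0.353 to 0.799), and those with different numbers less (54 pairs, r -0.686 to 0.0959). The numbers were taken to mark flowers, which these correlations alone do not show, since flowers of different cultivars with the same number also correlated. For 'China Pink' against 'Delft Blue' within a stage, the 9 pairs with the same number had r of 0.134 to 0.517 and the 18 others -0.489 to 0.22, a pairing that comes from the data and not from the labels. Sequences are not shown here.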

Additional observations from a re-analysis of the deposited data

Results flagged for a closer look

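Changes that differed between partitions of the same flower were flagged by the test of the difference itself. From Stage B to Stage C, 3460 unigenes were higher and 1233 lower in the change of the tube than of the lobes, with early nodulin-like protein 3 (Cluster-20417.227898, log2 difference 7.7) and histone H2A.2 (Cluster-20417.180491, -3.95) as the unigenes of smallest p. From Stage C to Stage A there were 193 and 311, with a WAT1-related protein (Cluster-20417.332324, 6.14) and peamaclein (Cluster-20417.235697, -2.21).

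Changes that differed between 'China Pink' and the mean of the other 6 cultivars were flagged in the same way. There were 1684 higher and 1432 lower unigenes from Stage B to Stage C, with a G protein gamma subunit 3 match (Cluster-20417.190541, 4.99) and a knotted-1-like 6 match (Cluster-20417.163646, -2.12), and 51 and 57 from Stage C to Stage A, with MnmE (Cluster-20417.232832, 2.64) and UPL1 (Cluster-20417.210714, -1.65). Groups of 3 flowers were too small for a check of single outlying flowers.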

How the results depend on the processing

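The change from Stage B to Stage C kept its size under DESeq2, 27 libraries as units and the replicate block, and 36608 of its calls were shared with the fit with the replicate block, which called 37255. Risen unigenes numbered 11639 with library sizes alone, 10152 with limma on log2(FPKM + 0.1), 7165 on log2(FPKM + 1), 12897 in outer lobes alone and 11493 in tubes alone, and fallen ones 41266 with library sizes alone, 38602 on log2(FPKM + 0.1), 13475 in outer lobes, 9893 in tubes and 11420 without the 3 flowers with potyvirus-like counts. Without 1 flower they ranged from 14132 to 21062 and from 11150 to 21427. The G protein gamma subunit 3 match (Cluster-20417.190541) turned to -0.45 in tubes alone.

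From Stage C to Stage A, risen and fallen unigenes numbered 8237 and 8127 with 27 libraries as units, 4884 and 4553 with DESeq2, 16 and 18 with the earlier quasi-likelihood fit, 3639 and 2620 with limma-trend, 7994 and 5401 with no filter, 0 and 0 with the 6 flowers alone, 632 and 372 in inner lobes, 1 and 0 in outer lobes, 430 and 491 in tubes and 9710 and 9820 at an unadjusted p. With the replicate block 0 rose and 3 fell, but numbers of different stages were not paired (r -0.327 to 0.155). Further counts were 1017 risen on log2(FPKM + 1), and 3226 fallen with library sizes alone and 2929 on log2(FPKM + 0.1). Without 1 flower the ranges were 0 to 6227 and 0 to 4258.

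Tube against lobes gave 8295 and 3668 at an unadjusted p in the first step (2347 to 3684 and 794 to 1372 without 1 flower), and 645 and 690 with no filter and 3136 and 3426 at an unadjusted p in the second (40 to 312 and 122 to 492). Against 'Delft Blue', DESeq2 called 527 and 630, no filter 2479 and 3019, the replicate block across stages 2 and 0, the replicate block within each stage 792 and 2024 (157 to 909 and 622 to 2133 without 1 pair), and an unadjusted p 6617 and 8084 in the first step (0 to 7 and 0 to 69 without 1 flower), and 10 and 13, 567 and 1399, 0 and 0, 0 and 3 (0 to 13 and 0 to 100), and 2997 and 4594 in the second (0 to 0 in both directions without 1 flower). Against the other 6 cultivars, no filter gave 1102 and 895 and an unadjusted p 8572 and 7303 in the first step (444 to 2647 and 328 to 2113), and 31 higher with no filter and 3361 and 6951 at an unadjusted p in the second (6 to 313 and 1 to 354). An unadjusted p, used with the same threshold of log2 fold change, calls more unigenes by construction. Leaving out 1 flower gave fewer calls in some cases and more in others, and for this and the other settings the cause was not tested. With 3 flowers a stage, most changes of 2.5-fold were missed on simulated counts with a dispersion of 0.1, a spread that was set and not taken from these flowers.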
